A study of Mus musculus with 5 samples.

Results

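The feedback inhibitors of MAP kinase signalling were followed through 5 RNA sequencing libraries of C2C12 cells, an immortalised mouse myoblast line. The group comprised 10 genes, taken by symbol from a table of 23361 genes: the dual-specificity phosphatase genes Dusp1, Dusp4, Dusp5, Dusp6 and Dusp10, the Sprouty genes Spry1, Spry2 and Spry4, Errfi1 and Phlda1. All 10 were found. All cells were proliferating in high-glucose medium with serum. One pair of libraries came from cells given a short hairpin RNA against PKM2 (shPKM2) or a control hairpin (shControl) for 72 h. The others were treated for 8 h, with vehicle, with shikonin or with TEPP-46. PKM2 is a splice form of the glycolytic enzyme pyruvate kinase. The plant naphthoquinone shikonin is used to inhibit it, and TEPP-46 is known as an activator. The labels give neither the doses nor the hairpin sequences. Each condition had 1 library, so no difference below has a replicate check, no test was possible, and each value describes these libraries only.

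MAP kinases are activated by phosphorylation on a threonine and a tyrosine of the activation loop, and the dual-specificity phosphatases remove both phosphates. Several of these phosphatase genes are themselves switched on by the kinases they silence, so their transcripts are commonly read as a record of recent kinase activity. Sprouty proteins act further up, between growth factor receptors and ERK, and ERRFI1 (also called MIG6) binds and inhibits the EGF receptor. In myoblasts, ERK signalling driven by FGF and other serum factors favours proliferation over differentiation, while p38 kinases promote the muscle programme.

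The sequences just upstream of the genes differ in the short motifs that are known to be read by signal-dependent factors. RefSeq promoters (build GRCm38.p6, 250 bases before to 50 after the annotated start) were searched for 7 of the 10 genes, with 8 starts. No promoter was searched or is shown for Dusp4, Phlda1 and Spry4. This does not mean that none is annotated for them, and their motifs were not tested. The promoters of Dusp1 (chr17:26508423-26508722, minus strand), Dusp5 (chr19:53528895-53529194, plus strand) and Errfi1 (chr4:150854820-150855119, plus strand) are shown because these genes had some of the widest ranges over the libraries. That of Dusp6 (chr10:99262981-99263280, plus strand) is shown for contrast. Capitals mark every match to a searched motif.
Dusp1: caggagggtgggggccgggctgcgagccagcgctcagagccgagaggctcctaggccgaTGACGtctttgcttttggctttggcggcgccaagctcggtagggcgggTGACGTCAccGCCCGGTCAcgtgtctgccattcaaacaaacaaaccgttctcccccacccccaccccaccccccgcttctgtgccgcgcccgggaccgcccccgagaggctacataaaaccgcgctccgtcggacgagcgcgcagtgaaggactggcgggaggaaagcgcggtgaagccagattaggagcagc
Dusp5: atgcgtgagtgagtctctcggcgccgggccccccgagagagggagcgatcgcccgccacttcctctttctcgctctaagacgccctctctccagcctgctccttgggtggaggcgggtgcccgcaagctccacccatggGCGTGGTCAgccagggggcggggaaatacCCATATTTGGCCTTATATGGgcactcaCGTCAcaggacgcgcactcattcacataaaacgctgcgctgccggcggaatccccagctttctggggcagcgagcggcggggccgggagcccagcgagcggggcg
Errfi1: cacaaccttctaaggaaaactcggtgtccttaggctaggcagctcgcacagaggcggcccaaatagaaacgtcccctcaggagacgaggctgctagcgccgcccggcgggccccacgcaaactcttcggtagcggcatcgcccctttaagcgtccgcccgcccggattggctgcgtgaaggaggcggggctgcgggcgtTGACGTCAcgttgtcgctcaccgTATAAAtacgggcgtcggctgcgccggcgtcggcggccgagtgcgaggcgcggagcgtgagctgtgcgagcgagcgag
Dusp6: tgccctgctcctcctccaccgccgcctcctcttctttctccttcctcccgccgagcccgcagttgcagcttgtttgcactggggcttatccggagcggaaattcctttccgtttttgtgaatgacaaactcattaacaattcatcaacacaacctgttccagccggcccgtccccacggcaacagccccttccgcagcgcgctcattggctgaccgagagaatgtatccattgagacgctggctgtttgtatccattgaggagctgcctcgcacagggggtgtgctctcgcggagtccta
Positions are counted from the start, the base before it being -1, and give the first base of a match as printed. The full cAMP response element TGACGTCA, bound by CREB and ATF factors, began at -143 in Dusp1 and at -51 in Errfi1, and was present in 1.79% of 32851 promoters of the same length. Its core TGACG lies inside it and was present in 20.8% of promoters. Dusp1 held a further core at -191, and Dusp5 held 1 on the opposite strand, at -55. Dusp5 alone among the 7 genes held CArG boxes, the sites of serum response factor: 2 of them stood end to end, at -82 and -72, and 1.63% of promoters held at least 1. The antioxidant response element core TGACNNNGC was found on the opposite strand in Dusp1 and in Dusp5 and in 12.4% of promoters, and the TATA box TATAAA, searched as transcribed, in Errfi1 and in 8.32%. Neither the AP-1 site TGANTCA (7.81% of promoters), the ETS site CCGGAAG (8.86%), the heat shock element, alternating GAA and TTC blocks spaced by 2 bases (0.603%), nor the ATF4 composite site TGATGNAA (3.97%) was found in any of the 8 windows. No searched motif was present in the windows of Dusp6, Dusp10, Spry1 and Spry2 or at the other start of Errfi1. Apart from the TATA box, both strands were searched. These matches describe the letters of the windows only.

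Of all genes, 11128 averaged 1 FPKM or more over the 5 libraries (FPKM: fragments per kilobase of gene and 1000000 fragments). These are the tested genes below, although no significance test was possible, and the 10 feedback genes were among them. The estimated depth ran from 22.01 to 30.4 times 1000000 reads. The targeted gene Pkm was at 0.505 times its shControl level in shPKM2, at 1041 against 2061 FPKM. For Pkm, shPKM2 was the lowest library and shControl the highest. The shControl level was 1.56 times that of vehicle, which stood at 1321 FPKM, so the size of the knockdown depends on the control. The 6 myoblast markers summed to 288 FPKM with shikonin and to 439 to 530 FPKM in the other libraries. Of these Myog, the myogenin gene, was below 1 FPKM with shikonin, at 0.278 against 4.41 to 6.91 FPKM elsewhere, and the others were above 1 FPKM in every library. Of 21 markers of other cell types, 18 were below 1 FPKM in every library. The exceptions were Tubb3, Cd68 and Fabp4. The transcripts Rn45s, Rmrp and Rpph1, which carry no regular poly(A) tail, and Lars2, taken with them as a check of the poly(A) selection, summed to 910 FPKM with shikonin, 624 with vehicle, 414 in shPKM2, 368 in shControl and 292 with TEPP-46. Differences are those of log2(FPKM + 1), which understates the change of low genes. The SE beside a difference covers counting error only, from estimated reads and without the added 1.

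Dusp1, on chromosome 17 (26505590 to 26562128, minus strand, GRCm38, GENCODE M21), encodes a nuclear phosphatase that prefers p38 and JNK and is a classic immediate early gene. The annotated span runs well past the RefSeq start used for its promoter. It stood at 28.05 FPKM in shPKM2, 34.7 in shControl, 40.3 with vehicle, 79.9 with shikonin and 44.1 with TEPP-46. The shikonin library stood far above the other 4, of which shPKM2 was the lowest. Dusp5, on chromosome 19 (53529109 to 53542431, plus strand), encodes a nuclear phosphatase that acts on ERK. Its levels were 29.1 FPKM in shPKM2, 23.7 in shControl, 44.2 with vehicle, 70.3 with shikonin and 41.9 with TEPP-46. Both hairpin libraries were thus low for Dusp5, vehicle and TEPP-46 intermediate, and shikonin high. Dusp4, on chromosome 8 (34807297 to 34819894, plus strand), encodes a further nuclear, ERK-inducible phosphatase. It was listed at 100.8 FPKM in shPKM2, 81.1 in shControl, 60.3 with vehicle, 87.3 with shikonin and 56.8 with TEPP-46. Here the highest library was shPKM2, and vehicle and TEPP-46 were low together.

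Dusp6, on chromosome 10 (99263231 to 99267489, plus strand), encodes the cytoplasmic phosphatase that is dedicated to ERK. Its range was small, with 31.2 FPKM in shPKM2, 32.5 in shControl, 29.2 with vehicle, 25.2 with shikonin and 20.6 with TEPP-46. Both compound libraries lay below the other 3. Dusp10, on chromosome 1 (184013302 to 184075636, plus strand), encodes a phosphatase of JNK and p38 and varied least of the phosphatases, 1.51 times from lowest to highest. Its values were 23.4 FPKM in shPKM2, 27.5 in shControl, 18.2 with vehicle, 23.1 with shikonin and 20.03 with TEPP-46. Summed over the 5 phosphatase genes, the level was 286 FPKM with shikonin, 213 in shPKM2, 199.6 in shControl, 192 with vehicle and 183 with TEPP-46. The make-up of this sum differed too. Dusp4 made 47.4% of it in shPKM2 and 40.7% in shControl, against 31.4% with vehicle, 30.5% with shikonin and 31.0% with TEPP-46. Dusp6 made 8.83% with shikonin and 15.2% with vehicle.

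The Sprouty genes were expressed at very different levels. Spry2, on chromosome 14 (105891947 to 105896819, minus strand), was the main form, with 38.9 FPKM in shPKM2, 42.7 in shControl, 32.1 with vehicle, 31.9 with shikonin and 27.2 with TEPP-46. Vehicle and shikonin were nearly equal, and both hairpin libraries were above all 8 h libraries. Spry4, on chromosome 18 (38586247 to 38601415, minus strand), stood at 5.87 FPKM in shPKM2, 5.58 in shControl, 6.78 with vehicle, 8.43 with shikonin and 3.39 with TEPP-46. The compounds marked its extremes, shikonin the highest and TEPP-46 the lowest. Spry1, on chromosome 3 (37639947 to 37644598, plus strand), known in mouse satellite cells for the return to quiescence, was near the limit of the filter, at 1.11 FPKM in shPKM2, 1.47 in shControl, 0.811 with vehicle, 0.741 with shikonin and 1.00 with TEPP-46. These values rest on an estimated 45 to 92 reads each, so that counting alone gives its differences an SE of 0.22 to 0.28.

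Errfi1, on chromosome 4 (150853919 to 150868892, plus strand), stood at 90.1 FPKM in shPKM2, 88.3 in shControl, 116.7 with vehicle, 72.4 with shikonin and 48.6 with TEPP-46. Vehicle was the highest library, the hairpin libraries were nearly equal, and both compound libraries were the lowest. Phlda1, on chromosome 10 (111506286 to 111508645, plus strand), encodes a pleckstrin homology-like protein whose transcript is used as an ERK output marker. It stood at 62.6 FPKM in shPKM2, 77.4 in shControl, 103 with vehicle, 153 with shikonin and 99.4 with TEPP-46, the shikonin library alone being far above vehicle. FPKM is a value per length, so levels can be ordered across genes. Errfi1 was the highest of the 10 genes in the vehicle and shControl libraries, Dusp4 in shPKM2, and Phlda1 with shikonin and with TEPP-46. Spry1 was the lowest and Spry4 the next in every library. With 1 library each, neighbours in this order could not be compared with a spread.

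**Figure D1:**
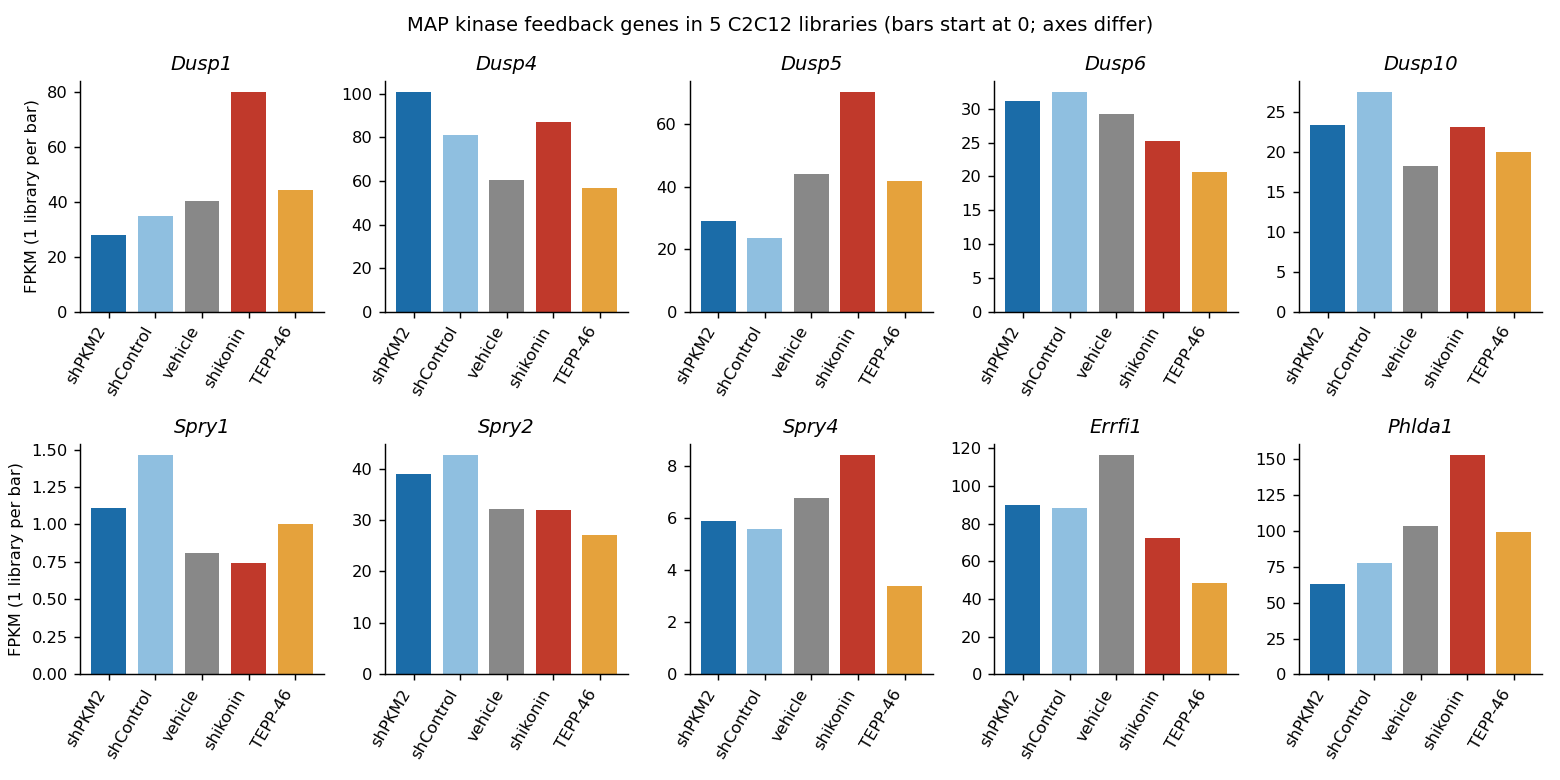
Level of each feedback gene (y axis, FPKM, starting at 0, with a scale of its own per panel) in the 5 libraries, 1 bar per library. Dusp1, Dusp5 and Phlda1 share a peak in the shikonin library (79.9, 70.3 and 153 FPKM), whereas Errfi1 peaks with vehicle at 116.7 FPKM and is lowest with TEPP-46 at 48.6 FPKM.

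Shikonin was compared with vehicle at 8 h, as a compound used against PKM2. The nuclear, inducible phosphatase genes and Phlda1 were higher in the shikonin library, while Errfi1 was lower. Dusp1 was 1.98 times the vehicle level, a difference of 0.97 (counting SE 0.035), Dusp5 1.59 times (0.66, SE 0.034), Phlda1 1.48 times (0.56, SE 0.026) and Dusp4 1.45 times (0.53, SE 0.028). Dusp10 (0.33, SE 0.053) and Spry4 (0.28, SE 0.067) were higher by less. Spry2 differed by -0.01 (SE 0.049), within its counting error, and Spry1 by -0.06 (SE 0.28). At the low end, Dusp6 differed by -0.20 (SE 0.047) and Errfi1 by -0.68 (SE 0.025), 0.620 times the vehicle level. Of the 10 genes, 6 were higher and 4 lower, against 5293 higher and 5812 lower over all tested genes. None reached 2-fold in either direction, where 4.01% of the 11128 tested genes lay 2-fold or more above vehicle and 3.5% lay 2-fold or more below it. The median of the group was 0.30, against -0.03 over all tested genes. Within that wide response the single values were moderate: 4.33% of tested genes were as high as Dusp1 or higher, and 9.67% were as low as Errfi1 or lower. All 4 RNAs of the poly(A) check were also higher with shikonin than with vehicle, with a median of 0.76. All 6 myoblast markers were lower (median -1.02), 3 of them at least 2-fold. The macrophage marker Cd68 was higher, at 7.89 FPKM against 2.52 (1.34), and Csf1r stood at 0.870 against 0.0389 FPKM, with Ptprc at most 0.0555 FPKM in both libraries. The part of these RNAs and markers in the differences was not tested. The vehicle library decides some of the values. With shControl in its place, at another time and with a hairpin, Dusp1 stood at 1.18 and Dusp5 at 1.53, both past 2-fold, while Dusp4 stood at 0.10 and Errfi1 at -0.28. Dusp10 changed sign to -0.24, and so did the group median, to -0.068.

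The comparison of TEPP-46 with vehicle used the vehicle library a second time. Errfi1 and Spry4 were the lowest against vehicle, followed by Dusp6, and the other 7 genes lay between -0.23 and 0.15. Errfi1 stood at 0.416 times the vehicle level (-1.25, SE 0.028), and only 30 of 11128 tested genes (0.270%) were as low or lower. Spry4 stood at 0.500 times (-0.82, SE 0.087, with 71 genes as low or lower), Dusp6 at 0.705 times (-0.48, SE 0.049) and Spry2 at 0.846 times (-0.23, SE 0.051). Dusp1 (0.12, SE 0.040), Dusp10 (0.13, SE 0.054), Spry1 (0.15, SE 0.25), Phlda1 (-0.05, SE 0.028), Dusp5 (-0.08, SE 0.038) and Dusp4 (-0.09, SE 0.031) lay near 0. Of the 10 genes, 3 were higher and 7 lower, against 5512 higher and 5583 lower over all tested genes. On the log2(FPKM + 1) scale Errfi1 was the only one past 2-fold, where 0.359% of tested genes lay as far below vehicle and 1.23% as far above it. The group median was -0.08 against 0.00 over all tested genes. Both compounds thus had lower Errfi1 and Dusp6 than vehicle, but these comparisons share the vehicle library, in which Errfi1 was at its highest. With shControl as the control, Errfi1 stood at -0.85, Dusp6 at -0.63, Spry2 at -0.63, Spry4 at -0.58 and Dusp4 at -0.51. Spry4 was thus no longer among the lowest 2. Dusp5 turned to 0.79, Phlda1 to 0.36, Dusp10 to -0.44 and Spry1 to -0.30. Dusp1 stood at 0.34, and the group median was -0.47. The poly(A) check RNAs were lower with TEPP-46 than with vehicle (median -1.19), as were 4 of the 6 myoblast markers (median -0.15), while Myf5 was higher (1.07), and their part in these differences was not tested.

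**Figure D2:**
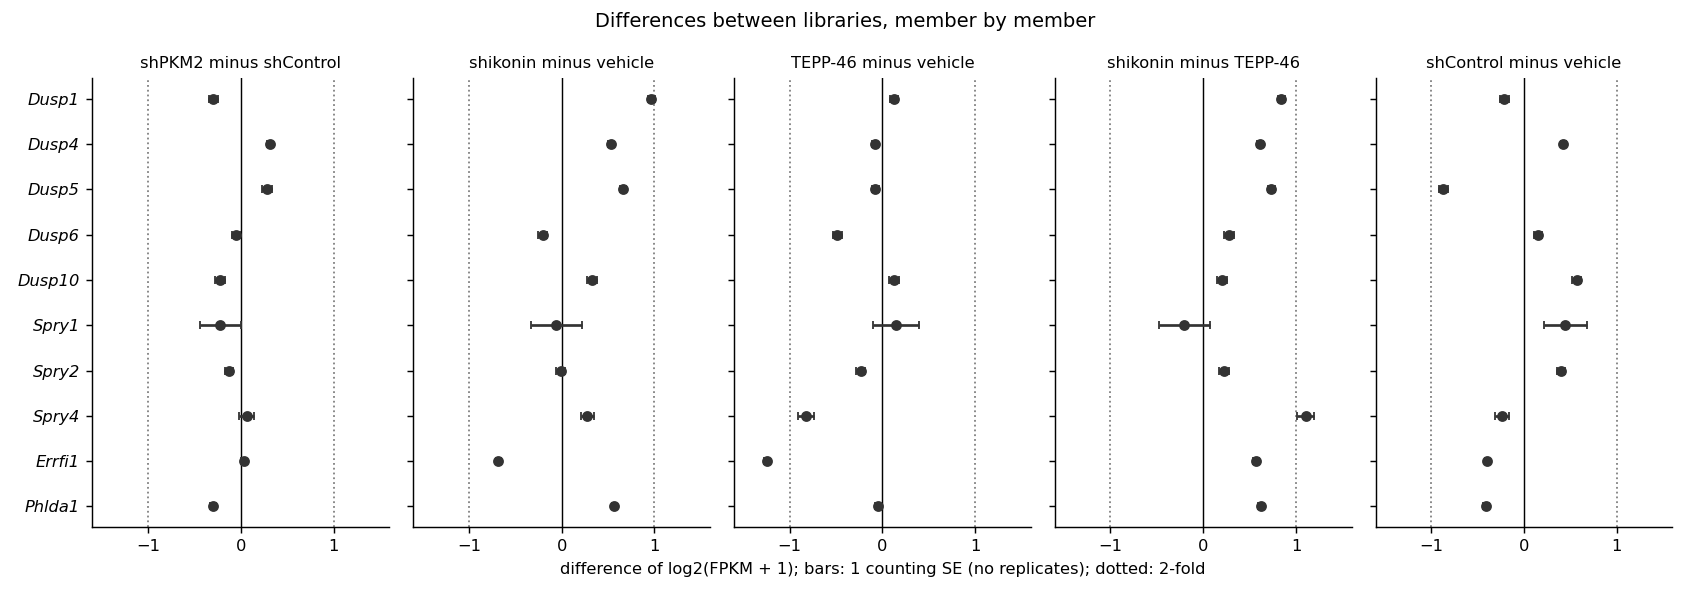
Difference of log2(FPKM + 1) (x axis) for each feedback gene (rows) in 5 comparisons (panels), with bars of 1 counting SE and dotted lines at 2-fold. Errfi1 in TEPP-46 minus vehicle (-1.25) and Spry4 in shikonin minus TEPP-46 (1.10) are the points beyond the lines.

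The direct comparison of shikonin with TEPP-46, at the same 8 h and at doses the labels do not give, does not use the vehicle library. Of the 10 genes, 9 were higher with shikonin, the exception being Spry1 (-0.20, SE 0.28). Spry4 differed most, at 2.49 times the TEPP-46 level (1.10, SE 0.088), followed by Dusp1 (0.84, SE 0.037), Dusp5 (0.73, SE 0.037), Phlda1 (0.62, SE 0.028), Dusp4 (0.61, SE 0.031) and Errfi1 (0.57, SE 0.032). Dusp6 (0.28, SE 0.053), Spry2 (0.23, SE 0.054) and Dusp10 (0.20, SE 0.055) differed by less. The group median was 0.59, against -0.04 over all tested genes, of which 5189 were higher with shikonin and 5909 lower. Spry4 alone was at least 2-fold higher, where 3.64% of tested genes were, and no member was at least 2-fold lower, where 3.64% of tested genes also were. With a pseudocount of 5, Spry4 fell short of 2-fold, at 0.68. The RNAs of the poly(A) check differed in the same direction and by more, with a median of 1.98. Cd68 was also higher with shikonin (1.33) and all 6 myoblast markers were lower (median -0.77). The part of these RNAs and markers in the difference was not tested.

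Lowering Pkm for 72 h went with small differences in these genes. Dusp4 (0.31, SE 0.027) and Dusp5 (0.28, SE 0.052) were higher in shPKM2 than in shControl, and Phlda1 (-0.30, SE 0.036), Dusp1 (-0.30, SE 0.049), Dusp10 (-0.22, SE 0.049) and Spry2 (-0.13, SE 0.045) were lower. Spry1 (-0.22, SE 0.22), Dusp6 (-0.06, SE 0.044), Spry4 (0.06, SE 0.080) and Errfi1 (0.03, SE 0.025) differed by less than 2 counting SEs. The phosphatase genes thus differed in both directions, Dusp4 and Dusp5 against Dusp1 and Dusp10. None of the 10 reached 2-fold, where 0.395% of tested genes lay 2-fold or more above shControl and 0.225% as far below it. The median absolute difference of the group was 0.22, against 0.11 over all tested genes, and 5.15% of tested genes were as high as Dusp4 or higher. The shControl library carries these values. With vehicle as the control, 7 of the 10 changed sign, Dusp5 to -0.59 among them, while Dusp4 stood at 0.73, Phlda1 at -0.71 and Dusp1 at -0.51. The macrophage marker Cd68 was 1.32 higher in shPKM2, with Ptprc, Csf1r and Itgam at or below 0.111 FPKM in both hairpin libraries and Adgre1 at 0 in all 5. All 4 RNAs of the poly(A) check were higher in shPKM2 (median 0.29), and 5 of the 6 myoblast markers were lower (median -0.39). The part of these markers and RNAs in the values was not tested.

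Over the 10 genes, the control libraries differed from each other by more than shPKM2 did from shControl (root mean square 0.45 against 0.22). The same held over all tested genes (0.58 against 0.30), so this is not particular to the feedback genes. Between shControl and vehicle, Dusp5 stood at 0.537 times the vehicle level (-0.87, SE 0.047), and 1.11% of tested genes were as low or lower. Phlda1 (-0.41, SE 0.031) and Errfi1 (-0.40, SE 0.023) were also lower in shControl, as were Spry4 (-0.24, SE 0.075) and Dusp1 (-0.21, SE 0.043). Dusp10 (0.57, SE 0.050), Dusp4 (0.42, SE 0.029), Spry2 (0.40, SE 0.045), Spry1 (0.44, SE 0.23) and Dusp6 (0.15, SE 0.043) were higher. None reached 2-fold, where 3.48% of tested genes lay 2-fold or more above vehicle and 0.665% as far below it. The poly(A) check RNAs were all lower in shControl (median -0.98), 2 of them at least 2-fold. Tubb3, alone of the neuronal and glial markers among the tested genes, was also lower, at 71.4 against 226.7 FPKM (-1.65). Of the 6 myoblast markers, 4 were higher and 2 lower (median 0.10), with Myf5 at 32.1 against 10.7 FPKM. The part of these RNAs and markers in the differences was not tested. Hairpin, time and culture cannot be told apart between these libraries.

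**Figure D3:**
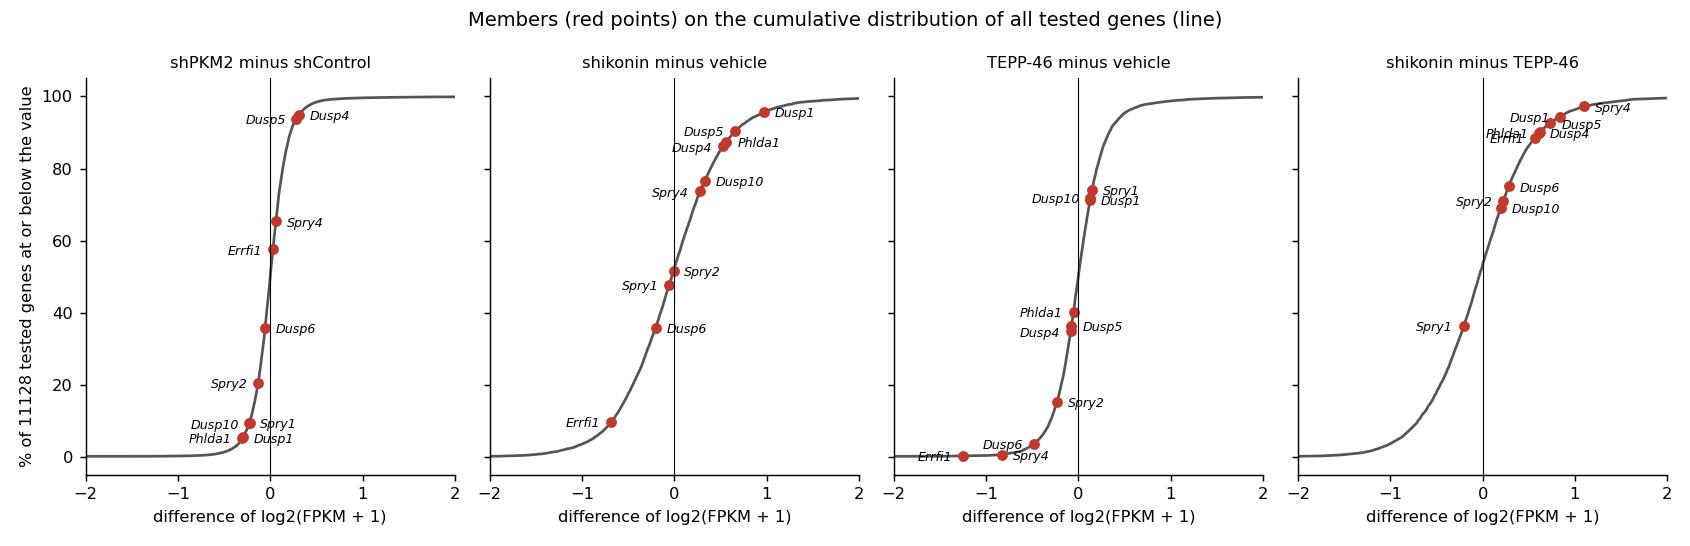
Percentage of the 11128 tested genes at or below each difference of log2(FPKM + 1) (y axis against x axis, grey line), with the feedback genes as red points, in 4 comparisons. With shikonin Dusp1 is the highest point and Errfi1 the lowest, with 4.33% of genes as high as Dusp1 or higher and 9.67% as low as Errfi1 or lower. Others, such as Spry1 and Spry2, lie near the middle. Errfi1 sits at the lower end with TEPP-46, where 0.270% of genes are as low or lower.

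Over the 10 genes together, the closest libraries were shPKM2 and shControl, with a root mean square difference of 0.22 on the log2(FPKM + 1) scale, against 0.30 over all tested genes. Vehicle and TEPP-46 differed by 0.51 over the feedback genes and by 0.36 over all genes. For vehicle and shikonin the values were 0.52 and 0.61. The feedback genes thus separated TEPP-46 from vehicle about as far as shikonin from vehicle, although the 2 compounds differed from vehicle unequally over all genes. This near equality was not seen with the hairpin libraries. From shControl, TEPP-46 differed by 0.57 and shikonin by 0.75 over the feedback genes, and from shPKM2 by 0.60 and 0.77. Errfi1 and Spry4 made 86.2% of the summed squared difference between TEPP-46 and vehicle.

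Genes with the most similar profile over the 5 libraries were sought for the 4 feedback genes of widest range, Dusp5, Dusp1, Phlda1 and Errfi1, among 8456 genes averaging 5 FPKM or more. Likeness was the root mean square difference of the log2(FPKM + 1) values, each centred on its own mean. For Dusp1 the nearest were Peli1 (0.04), Ccdc117 (0.05) and Serinc3 (0.06). Dusp5 lay closest to Clcf1 (0.08), a cytokine gene of the interleukin 6 family, then Rbak (0.11) and Polr3e (0.12). Arl5b (0.05), Tuft1 (0.10) and Zfp60 (0.10) were the nearest to Phlda1. Errfi1 had no such close match: the best were Cxcl12 (0.18), Socs5 (0.19) and Nr1d1 (0.20). With 5 libraries and many genes, close matches are easily found, and these are given as a description.

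The remaining phosphatases were divided. Of 9 tested further phosphatase genes, 4 were higher and 5 lower with shikonin (median -0.26, or -0.11 with no filter on low values). None passed 2-fold on the log2(FPKM + 1) scale, but 1 did with a pseudocount of 0.1 or on the TPM scale. With shControl as the control 1 did as well, but a different gene. This was Dusp22, at 4.76 FPKM with shikonin against 10.9 in shControl. Dusp8, a phosphatase of JNK and p38, went opposite ways with the compounds: it stood at 4.76 FPKM with vehicle, 2.16 with shikonin (0.454 times, a difference of -0.87) and 9.48 with TEPP-46 (0.86). Between the compounds Dusp8 differed by -1.73, more than any of the 10 feedback genes. Dusp22 (-0.74), Dusp2 (0.65) and the p38 phosphatase gene Ppm1d (0.43) had the next largest differences with shikonin, and Dusp16 (0.59) with TEPP-46. In the knockdown their largest difference was that of Dusp22 (-0.45).

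Other inhibitors of receptor and RAS signalling were divided with shikonin and mostly lower with TEPP-46. Of 15 tested genes, 8 were higher and 7 lower with shikonin (median 0.02, or -0.11 over those averaging 5 FPKM or more), led by Socs3 (0.95), a feedback inhibitor of cytokine receptors, and by Rasa1 (-0.56), a RAS GTPase activator. With TEPP-46, 4 were higher and 11 lower (median -0.21, median absolute difference 0.21 against 0.15 over all tested genes), the Sprouty relatives Spred3 (-0.53) and Spred1 (-0.34) among the lowest. On the log2(FPKM + 1) scale none passed 2-fold with either compound or in the knockdown. Socs3 was at 9.66 FPKM with vehicle and 19.6 with shikonin, 2.02 times, and passed 2-fold with a pseudocount of 0.1. With shControl as the control, 1 gene of the list passed it with TEPP-46.

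At the ligand level, Areg (amphiregulin) and Btc (betacellulin), both ligands of the EGF receptor, were at least 2-fold higher with shikonin. Areg stood at 16.9 FPKM with vehicle and 55.9 with shikonin (1.66), and Btc at 2.56 and 6.33 (1.04). Hgf, the ligand of MET, was at least 2-fold lower, at 1.99 FPKM against 7.17 (-1.45). In all, 9 of 13 tested ligand genes were higher with shikonin (median 0.33). The count past 2-fold was 3, against 5 with a pseudocount of 0.1 and 1 with a pseudocount of 5. Of all tested genes, 4.01% lay 2-fold or more above vehicle with shikonin and 3.5% as far below it. With TEPP-46 the list was split, 6 higher and 7 lower (median -0.03). Fgf21 (0.154 to 2.70 FPKM, 1.68) and Vegfa (66.9 to 177 FPKM, 1.39) were at least 2-fold higher, and Hbegf, another EGF receptor ligand, was lower (-0.82). With a pseudocount of 5, the count of ligand genes past 2-fold with TEPP-46 was 1. Of all tested genes, 1.23% were at least 2-fold higher with TEPP-46. Between the hairpin libraries the ligand genes differed by at most 0.25 in size (median -0.01). Of 9 tested receptor genes, Pdgfra alone passed 2-fold against vehicle (1.16 with shikonin), from 1.24 to 4.01 FPKM, and with a pseudocount of 5 none did. With TEPP-46, 7 of the 9 were lower (median -0.22). In the knockdown Pdgfrb, which encodes a PDGF receptor, had the largest receptor difference, at 9.10 FPKM against 12.8 (-0.45). Egfr, the target of ERRFI1 and named for that reason after its values were seen, differed by 0.14 with shikonin, -0.27 with TEPP-46 and -0.12 in the knockdown.

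Of 19 ERK cascade genes, 9 were higher and 10 lower with shikonin (median -0.04, or 0.09 with shControl as the control), with none past 2-fold on the log2(FPKM + 1) scale. Ksr1, a scaffold gene, was at 1.597 FPKM with vehicle and 3.92 with shikonin, 2.46 times, and the added 1 holds its difference at 0.92. With a pseudocount of 0.1 it was past 2-fold. Within the list, Map2k1 (0.90), which encodes MEK1, was higher while Mapk3 (-0.86), which encodes ERK1, was lower. TEPP-46 left the list at a median of -0.01, with Rps6ka2 (0.87) standing out. Among 18 tested stress kinase genes, 4 were at least 2-fold higher with shikonin: Gadd45a (2.77), Mapk9 (1.22), Gadd45b (1.07) and Gadd45g (1.06). Of all tested genes, 4.01% were at least 2-fold higher. The count past 2-fold was 3 with a pseudocount of 5 or on the TPM scale, and 5 with shControl as the control. The GADD45 proteins bind and activate MAP3K4, upstream of p38 and JNK, and Mapk9 encodes JNK2. Gadd45a was also higher with TEPP-46 (2.55), whereas Gadd45b (-0.67) and Gadd45g (-0.52) were lower. The stress kinase list as a whole had medians of 0.11 with shikonin and -0.09 with TEPP-46.

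Other genes used as readouts of ERK activity were divided. Of 18, 10 were higher and 8 lower with shikonin (median 0.04). Ier3 stood at 76.5 FPKM with vehicle and 335 with shikonin (2.11), but also at 217 in shPKM2 and 262 in shControl. Ccnd1, the cyclin D1 gene (-1.13), and Egr1 (-1.04) were at least 2-fold lower with shikonin than with vehicle. Of all tested genes, 3.5% were as far below vehicle and 4.01% lay 2-fold or more above it. With TEPP-46, 7 were higher and 11 lower (median -0.09), Etv5 (1.13) and Egr1 (-1.10) passing 2-fold in opposite directions. Of all tested genes, 1.23% lay 2-fold or more above vehicle with TEPP-46 and 0.359% as far below it. With a pseudocount of 5, no gene of this list passed 2-fold with TEPP-46. With shControl as the control, 7 of the 18 did, and the median was -0.22. Egr1 was thus lower in both compound libraries, at 15.4 and 14.8 FPKM against 32.8 in the shared vehicle library. In the knockdown the list had a median of -0.05, with Epha4 (0.64) and Fos (-0.51) at its ends.

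**Figure D4:**
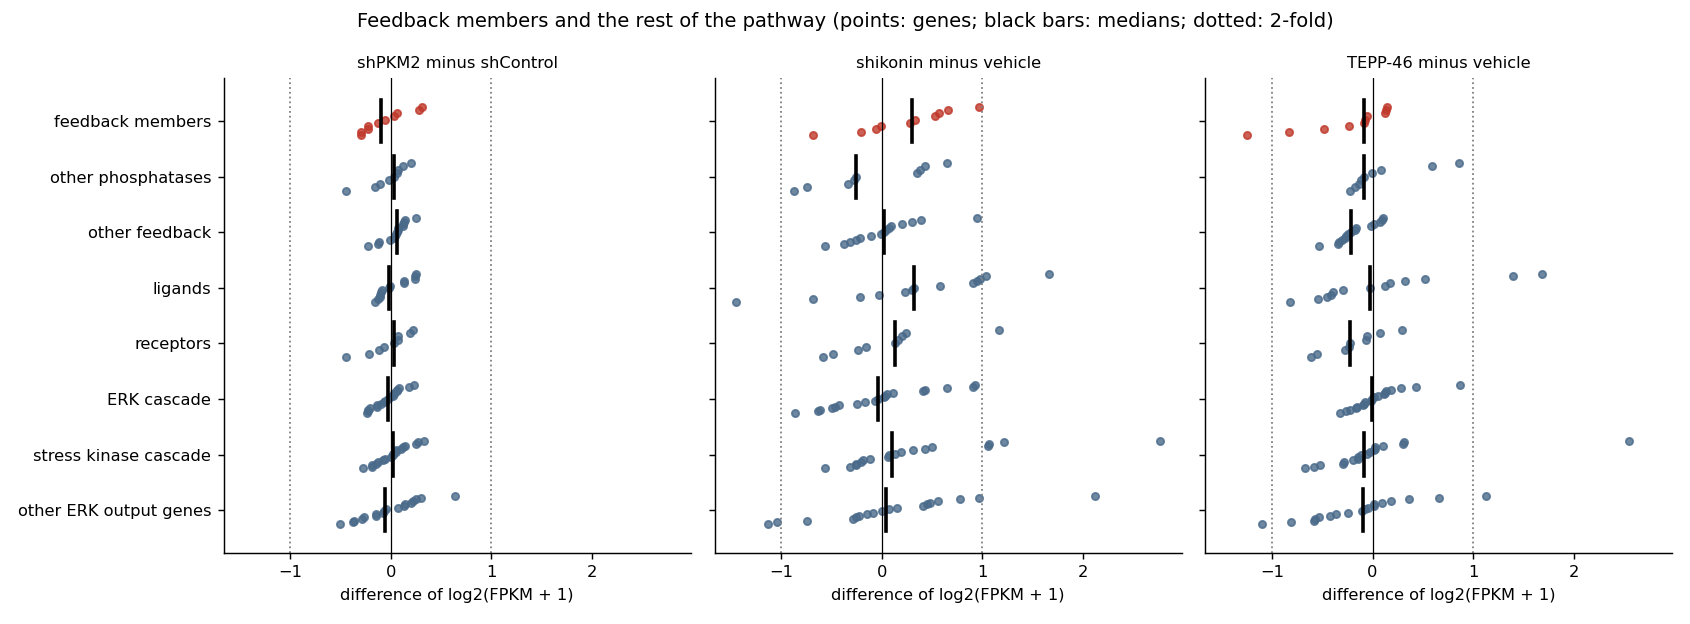
Difference of log2(FPKM + 1) (x axis) of every tested gene in the feedback group (red) and in 7 lists of the surrounding pathway (blue), in 3 comparisons, with black bars at the medians and dotted lines at 2-fold. Points spread least in the knockdown, and the feedback median of 0.30 with shikonin stands beside 0.33 for ligands and -0.26 for the other phosphatases.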

How the data were processed

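The authors deposited 1 table of FPKM values (unit from the table's name), 1 column per library, and columns were matched to samples by name. That of shControl carries a number, 30, without explanation in the labels. Trim Galore 0.6.0, cutadapt, FastQC, DESeq2 1.26.0 and the build GRCm38 are named, per the submitters' processing notes. The aligner, counting program and strandedness were not given in the sources used here, so reads of overlapping antisense genes cannot be told apart. Median-of-ratios factors were 0.998 to 1.00, so by this measure the values were already on a common scale. If they had been rescaled between libraries, the estimated depths would be scaled values and not read numbers.

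Depth was estimated from low values: in 2596 of 3893 low genes (66.7%) all values were whole multiples of 1 step (tolerance 0.02), and 640 single-transcript genes gave 30.4 times 1000000 reads for vehicle (quartiles 26.2 and 32.3). Reads per gene used the longest GENCODE M21 transcript. Among 1235 genes with several transcripts this length matched the step within 5% in 21.7%, so counting SEs are approximate. FPKM is not a count, so no count model was used.

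Differences are of log2(FPKM + 1) for genes averaging 1 FPKM or more, and a call is 2-fold. The depth and difference steps were tested on simulated data. No test was made, since conditions had 1 library each. The members and lists were chosen with earlier results of these data known. All members were named, together with up to 4 genes per list and comparison by size of difference, and 3 nearest profiles for the 4 members of widest range. Python 3.11.15 and pandas 2.3.3 were used. Alternatives were pseudocounts of 0.1 and 5, no filter or a minimum mean of 5 FPKM, rescaling to TPM and the other control library.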

Additional observations from a re-analysis of the deposited data

How the results depend on the processing

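Of 84 counts and medians of the feedback genes recomputed under an alternative, 78 stayed within their margin (1.5 times for counts, 2 counting SEs for medians). All 10 genes pass the main filter, so the setting with no filter could not move any of them. With shControl as the control, 2 members were at least 2-fold higher with shikonin and the median was -0.068, and with TEPP-46 none was at least 2-fold lower and the median was -0.47. With a pseudocount of 5 the count of members at least 2-fold higher with shikonin than with TEPP-46 was 0. With a minimum mean of 5 FPKM, which leaves out Spry1, the median between shControl and vehicle was -0.21. Of 275 single values, 13 changed sign, 12 of them with the other control library. The difference of a gene does not depend on the filter, so the 275 include values under the filter settings that could not change. These totals therefore understate how far the values depend on the control library. No paired analysis was possible because each condition has 1 library. Depth limits Spry1 most. The spread between cultures is unknown.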
